A study of Rattus norvegicus with 18 samples.

Results

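The genes described here were raised in the bladder of spinal cord-injured rats in both the detrusor and the mucosa, 182 of the 32754 genes listed. They were selected on the measured values. A gene had to exceed 1 CPM (counts per 1000000 counts of the column) in at least 3 of 18 libraries. Its mean CPM in uninjured detrusor and mucosa had to lie within 16-fold (0.5 CPM added), which left 15405 genes. A gene was then called raised in a tissue when its lowest SCI-vehicle library lay above its highest Control library, and members had to be raised in both tissues. The comparison of SCI-vehicle with Control is therefore given as a description, with no test.

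Total RNA was counted from 3 libraries for each of 6 groups, detrusor or mucosa of Control, SCI-vehicle or SCI-inosine rats. The rats were male Sprague Dawley, labelled 6 to 7 weeks of age. According to the methods this was the age at transection, and tissue was taken at the end of treatment. Control rats were uninjured, SCI-vehicle rats had a complete transection of the thoracic spinal cord and received 12 mM sodium bicarbonate at pH 9.2, and SCI-inosine rats had the same injury and were injected intraperitoneally with inosine each day (225 mg/kg), both for 8 weeks. No group of uninjured rats received inosine. Nothing in the labels says which libraries came from one animal, so p-values measure the spread between these libraries.

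The detrusor is the smooth muscle layer that empties the bladder. The mucosa is the urothelium with the connective tissue beneath it, which forms the barrier to urine and carries sensory nerve endings. Loss of spinal control after injury leads to reflex contractions against a closed outlet, and both layers thicken and remodel. Inosine is a purine nucleoside formed when adenosine is broken down.

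Depth ranged from 3255012 to 6810496 counts per library, with a median of 5030414. The detrusor SCI-inosine replicate 2 library had a count on 14126 genes, against 16475 to 18656 in the other libraries, and on 161 of the 182 members. The content of mucosa-enriched genes in detrusor libraries was followed through 494 genes that are not members, each over 4-fold higher in Control mucosa and over 50 CPM there. Their median position, where 0% is the level of Control detrusor and 100% that of Control mucosa, was 20.9% in detrusor SCI-vehicle replicate 1. It was 1.80% and 1.11% in replicates 2 and 3 of that group, -1.95% to 1.21% in Control and 3.04%, 9.51% and 7.80% in SCI-inosine replicates 1, 2 and 3. For 217 detrusor-enriched genes, chosen likewise, 100% is the level of Control detrusor. Their position was 88.9% to 105% in Control detrusor libraries. It was 69.5%, 79.8% and 73.4% in SCI-vehicle and 89.4%, 72.3% and 74.4% in SCI-inosine replicates 1, 2 and 3. Both gene sets were chosen on the Control libraries that also set the scale, so part of the shift in other libraries can come from the choice. The part of these positions in the detrusor ratios was not tested. The identifiers are not paired with gene names in the files used here, so marker genes of the tissues were not analysed, and members are described by their values. Only 2 are printed by identifier, chosen after their values were seen.

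By CPM, the share of raised genes common to both tissues lay close to the rate over all genes. In detrusor 1733 genes were raised, 11.2% of the 15405, and in mucosa 1652 were raised, 10.7%. The 182 members made up 1.18% of all genes. They were 10.5% of the genes raised in detrusor, beside the 10.7% of all genes that were raised in mucosa, and 11.0% of the genes raised in mucosa, beside the 11.2% raised in detrusor. The opposite pattern, raised in detrusor and lowered in mucosa by the same rule, held for 165 genes, and 79 were lowered in both tissues. With CPM computed from TMM effective library sizes (a scaling that discounts a few dominant genes), 122 genes met the rule, 105 of them members. They were then 9.04% of the genes raised in detrusor, beside 8.15% of all genes raised in mucosa. When the ratio of means, with nothing added, also had to exceed 1.5 in both tissues, 55 genes were left. They were 6.52% of the genes raised in detrusor under that rule, beside 3.41% of all genes raised in mucosa, so that the closeness of the shares did not hold for the larger ratios.

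**Figure D1:**
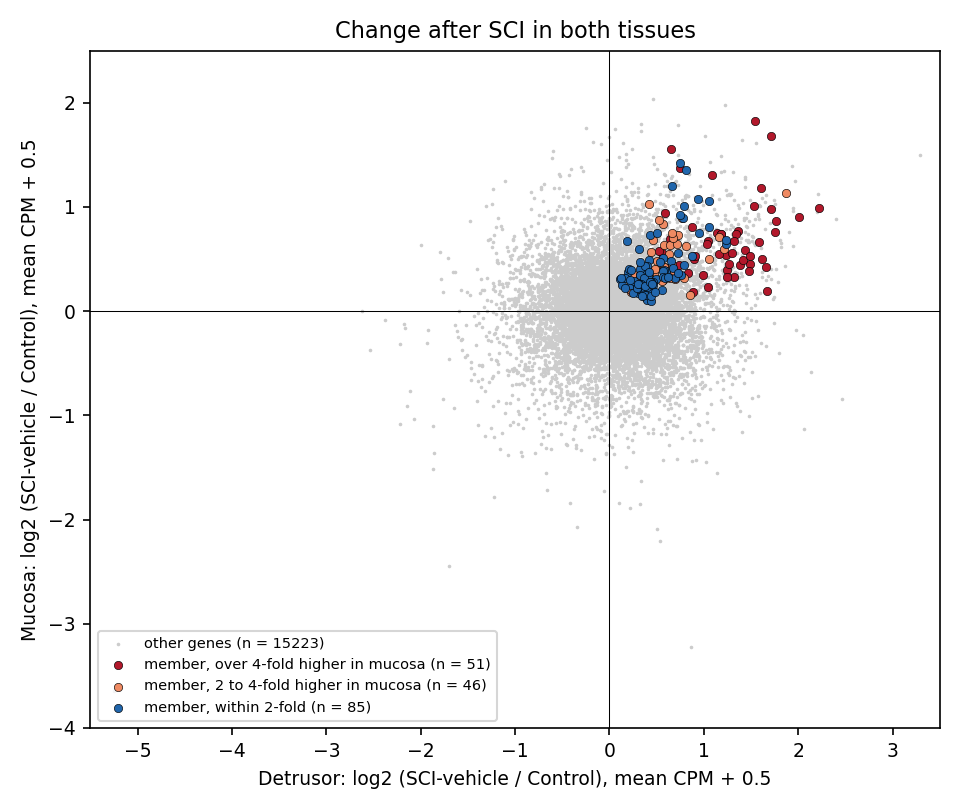
Each point is a gene, with the log2 ratio of mean SCI-vehicle to mean Control CPM (0.5 added) in detrusor on the x axis and in mucosa on the y axis. The 182 members, coloured by the ratio of Control mucosa to Control detrusor, lie at the upper right of the cloud of 15223 other genes, as the rule requires, and those over 4-fold higher in Control mucosa (51 genes) extend farthest along the detrusor axis.

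Most members were of moderate abundance. Their mean over the 18 libraries had a median of 27.3 CPM and ran from 0.551 to 966 CPM, against a median of 18.6 CPM for all genes. There were 33 members under 5 CPM, 125 from 5 to 100 CPM and 24 over 100 CPM. The log2 ratio of SCI-vehicle to Control had a median of 0.58 in detrusor (0.11 to 2.22) and 0.41 in mucosa (0.10 to 1.83), while the medians of all genes were 0.05 in each tissue. In 131 members the ratio was larger in detrusor than in mucosa. It exceeded 2-fold for 44 members in detrusor, for 15 in mucosa and for 7 in both, and 46 exceeded 1.5-fold in both. These folds are of means with 0.5 CPM added, which lowers the ratios of low genes. The 24 most abundant members had smaller ratios, with medians of 0.42 in detrusor and 0.28 in mucosa, and the 33 least abundant larger ones, 0.77 and 0.89. Low counts vary more between libraries, so the rule admits such genes mainly at larger ratios, and nothing is read from this order. For 7 members all Control libraries of detrusor were at 0, and for 1 member all those of mucosa. With these set to a floor of 3 counts over the group, both medians stayed at 0.58 and 0.41.

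By library, the median member stood in detrusor SCI-vehicle replicates 1, 2 and 3 at 0.70, 0.40 and 0.47 above the mean of Control on the log2 scale. In mucosa it stood at 0.38, 0.55 and 0.29. A single library was thus the highest for most members in each tissue. In detrusor SCI-vehicle replicate 1 was the highest for 125 members (68.7%, against 50.8% of all genes), and in mucosa replicate 2 was the highest for 121 (66.5%, against 40.8%). Detrusor replicate 1 was also the highest for 38.5% of genes raised in detrusor alone and 69.7% of those raised in mucosa alone. For mucosa replicate 2 these shares were 42.2% and 53.5%.

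The most separated member was ENSRNOG00000008365, where separation is the gap between the lowest SCI-vehicle and the highest Control library, taken in the tissue where it is smaller. In detrusor it had 1 count in each Control library, 34, 5 and 5 in SCI-vehicle, and 6, 42 and 6 in SCI-inosine. In mucosa it stood at 12.9, 9.23 and 8.49 CPM in Control, 21.6, 22.7 and 18.0 in SCI-vehicle and 23.9, 9.83 and 13.8 in SCI-inosine. Its detrusor values rest on few counts and on 1 high library in each injured group, whereas its mucosa groups of Control and SCI-vehicle are apart with no such library. All the SCI-inosine detrusor libraries lay above Control, and in mucosa SCI-inosine spread over both other groups.

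The most separated of the 24 members over 100 CPM stood at 19.2, 22.4 and 24.6 CPM in Control detrusor. It stood at 90.8, 39.1 and 42.6 in SCI-vehicle detrusor and at 40.8, 60.2 and 51.1 in SCI-inosine detrusor. In mucosa its values were 163, 116 and 125 CPM in Control, 212, 234 and 246 in SCI-vehicle and 280, 159 and 176 in SCI-inosine. Every injured detrusor library, with or without inosine, was above every Control library. In mucosa SCI-inosine replicate 2 was below the highest Control library.

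The most abundant member stood at 265, 342 and 404 CPM in Control detrusor, 657, 450 and 514 in SCI-vehicle and 371, 568 and 543 in SCI-inosine. In mucosa it stood at 1299, 1286 and 1337 CPM in Control, 1626, 2007 and 1503 in SCI-vehicle and 1502, 1465 and 1246 in SCI-inosine. SCI-inosine overlapped Control in both tissues. The log2 ratios to Control were 0.68 for SCI-vehicle and 0.55 for SCI-inosine in detrusor, and 0.39 and 0.10 in mucosa.

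The member with the largest mean log2 ratio was a low one. It had no count in the 3 Control detrusor libraries, then 15, 1 and 2 counts in SCI-vehicle and 0, 0 and 2 in SCI-inosine. In mucosa it stood at 6.00, 1.78 and 3.58 CPM in Control, 12.9, 18.7 and 8.18 in SCI-vehicle and 7.02, 3.07 and 1.70 in SCI-inosine. In mucosa SCI-inosine lay below SCI-vehicle in every library. In detrusor the counts are too few to set a fold.

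At the threshold, the member with the smallest separation had a lowest SCI-vehicle library of 73.4 CPM in mucosa and a highest Control library of 73.3 CPM. The next one had 114.0 CPM against 113.9 CPM in mucosa, although in detrusor its Control libraries ran from 8.92 to 14.4 CPM and its SCI-vehicle libraries from 18.4 to 50.3 CPM. The 2 genes just outside both had no count in Control detrusor and none in at least 1 SCI-vehicle detrusor library. Only 15 members had a separation of at least a factor of 1.2 in both tissues.

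**Figure D2:**
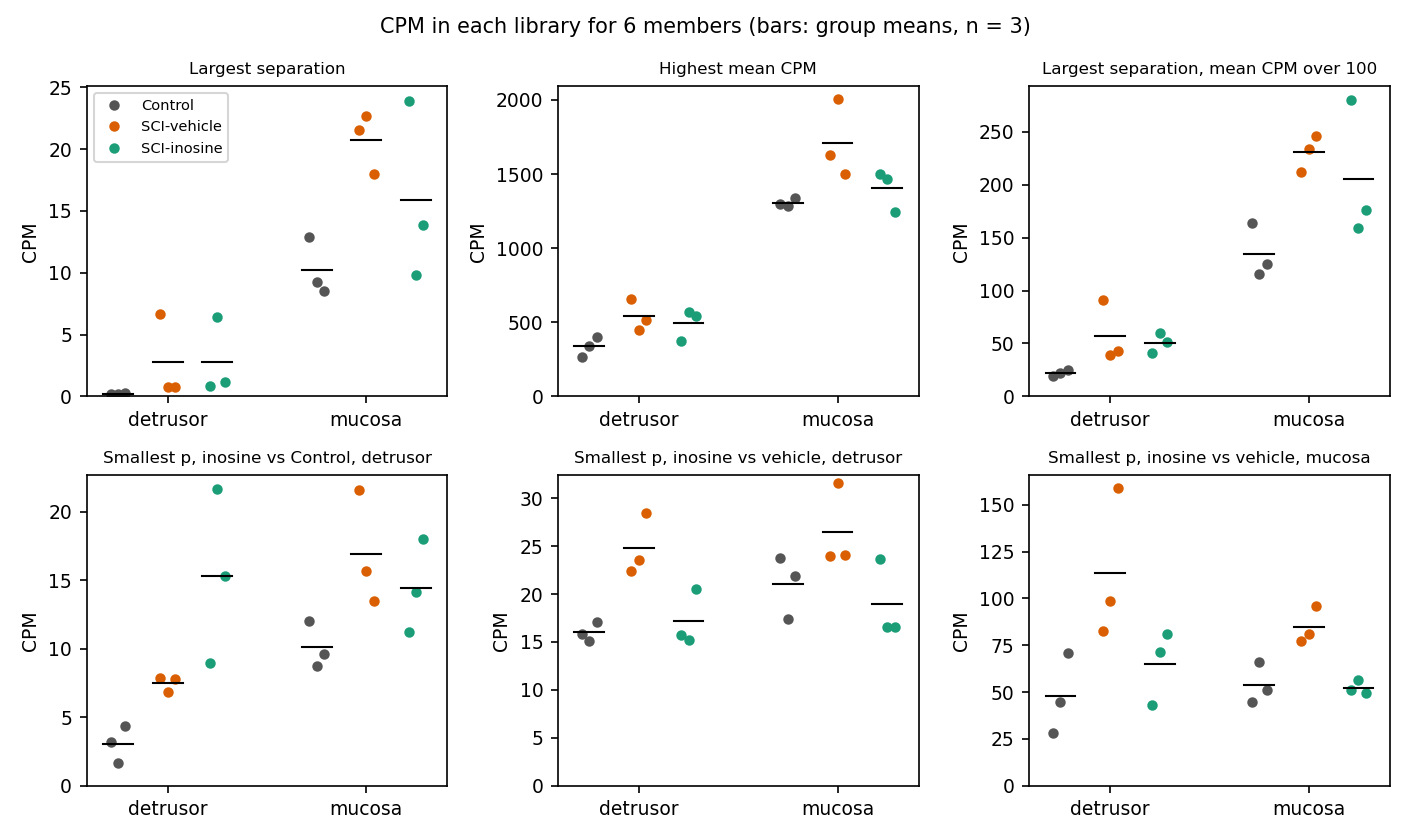
CPM (y axis, from 0) in each of the 18 libraries for 6 members, with Control, SCI-vehicle and SCI-inosine as points in that order in each tissue and a bar at each mean of 3. The most separated member has 1 high library in each injured detrusor group, and the member in the lower left panel has its highest detrusor values in SCI-inosine, at 8.96 to 21.6 CPM.

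The members leaned toward genes of the mucosa. In Control libraries 164 members (90.1%) had a higher mean CPM in mucosa than in detrusor, against 77.0% of all genes, and the median log2 ratio was 1.05 for members and 0.56 for all genes. The scaling moved both shares, and by edgeR with TMM scaling 67.6% of members and 53.7% of all genes were higher in Control mucosa, with median log2 differences of 0.58 and 0.07. By CPM 51 members (28.0%) were over 4-fold higher in Control mucosa, against 8.84% of all genes. A further 46 (25.3%, against 20.5%) were 2 to 4-fold higher, 85 (46.7%, against 64.2%) were within 2-fold, and 0 were over 2-fold higher in detrusor, against 6.45% of all genes. Genes raised in 1 tissue alone leaned the same way by CPM, less far. Over 4-fold higher in Control mucosa were 15.6% of those raised in detrusor alone and 12.4% of those raised in mucosa alone. Their median log2 ratios were 0.76 and 0.65.

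Members with a higher ratio of Control mucosa to Control detrusor had a larger ratio after injury in detrusor. Both ratios are divided by the Control detrusor mean, so a low value there raises both, and they are not independent. The median log2 ratio of SCI-vehicle to Control in detrusor was 1.25 for the 51 mucosa-enriched members, 0.57 for the 46 in between and 0.41 for the 85 within 2-fold. In mucosa the order was the same with smaller steps, at 0.58, 0.42 and 0.32. Genes raised in detrusor alone had the same order in detrusor, at 0.91, 0.64 and 0.41 in these classes. Those raised in mucosa alone had it in mucosa, at 0.72, 0.42 and 0.34, so neither order is particular to the members. All genes over 4-fold higher in Control mucosa had a median of 0.57 in detrusor and 0.07 in mucosa.

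Detrusor SCI-vehicle replicate 1, the library with the 20.9% position of mucosa-enriched genes, was the highest for 49 of the 51 mucosa-enriched members (96.1%). It was also the highest for 79.4% of all genes over 4-fold higher in Control mucosa, and for 96.2% of such genes that were raised in mucosa alone. The median of the 51 mucosa-enriched members in that library was 1.81 above Control on the log2 scale, and 0.71 and 0.60 in replicates 2 and 3. For the 85 members within 2-fold the corresponding medians were 0.46, 0.32 and 0.43. Leaving that library out lowered the median of the 51 members from 1.25 to 0.70 and that of the 85 from 0.41 to 0.39. For all 182 it was then 0.47 in place of 0.58. In bulk tissue, more cells of a type and more RNA per cell cannot be told apart, and the part of mucosa content in these ratios was not tested.

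**Figure D3:**
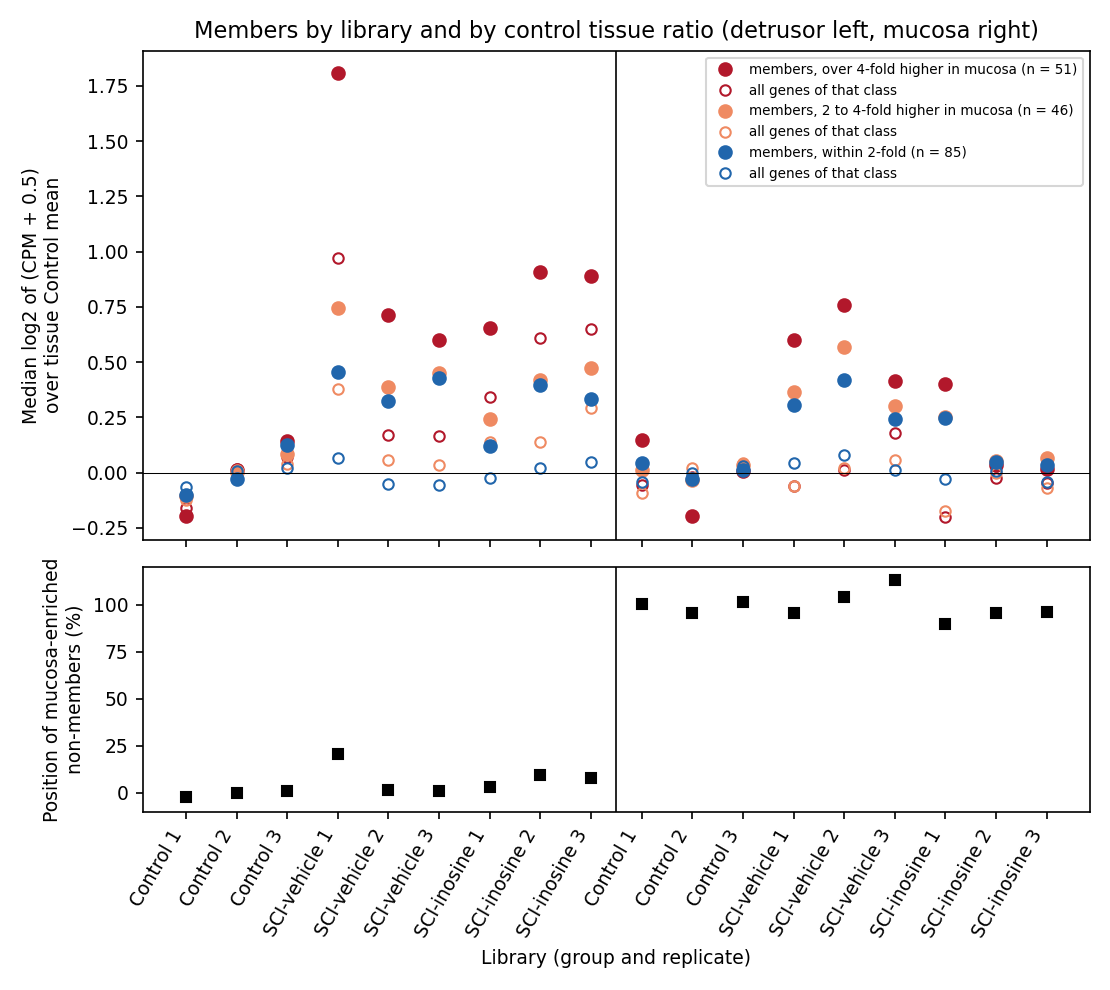
Upper panel, the median log2 ratio of each library to the Control mean of its tissue, for members (filled) and all genes (open) in 3 classes of Control mucosa to detrusor ratio. Lower panel, the position in % of 494 mucosa-enriched genes that are not members, which is 20.9% in detrusor SCI-vehicle replicate 1, where the median of the 51 mucosa-enriched members is 1.81.

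The tissue difference was also tested in SCI-inosine mucosa against SCI-inosine detrusor. The rule used these libraries only in its filter of over 1 CPM in at least 3 of 18 libraries. A gene low in detrusor can pass that filter through its mucosa libraries. Members also had to lie within 16-fold between the Control tissues, a limit that the 15740 genes tested did not have. The shares below are therefore given as a description. By edgeR's quasi-likelihood F test (Benjamini-Hochberg adjusted p under 0.05 over 15740 genes), 81 members (44.5%) were higher in mucosa, against 22.8% of all genes. Another 30 (16.5%) were higher in detrusor, against 19.9%. The median log2 difference was 0.52 for members (-2.85 to 5.81, median SE 0.23) and 0.11 for all genes tested. The 111 members called became 107 with DESeq2, which called 23.8% of all genes higher in mucosa and 19.9% higher in detrusor, and 92 to 110 when each library was left out. The other 71 members did not pass the test, which does not show equal levels.

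The SCI-inosine libraries were described beside the other groups, and since members were chosen for high SCI-vehicle and low Control values, a mean that lies between these groups is no evidence about inosine. In detrusor the SCI-inosine mean was at or below Control for 12 members, between Control and SCI-vehicle for 119 and at or above SCI-vehicle for 51. In mucosa these numbers were 35, 133 and 14. The median log2 ratio of SCI-inosine to Control was 0.42 in detrusor (-0.47 to 2.49) and 0.15 in mucosa (-0.49 to 1.15), against 0.09 and -0.01 for all genes. As a share of each member's own log2 ratio in SCI-vehicle, the median was 77.2% in detrusor and 32.0% in mucosa. Genes raised in 1 tissue alone, which were chosen in the same way, had shares of 87.0% in detrusor (1551 genes) and 36.4% in mucosa (1470 genes). The values of members and of these genes are given side by side, with no test of their difference.

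**Figure D4:**
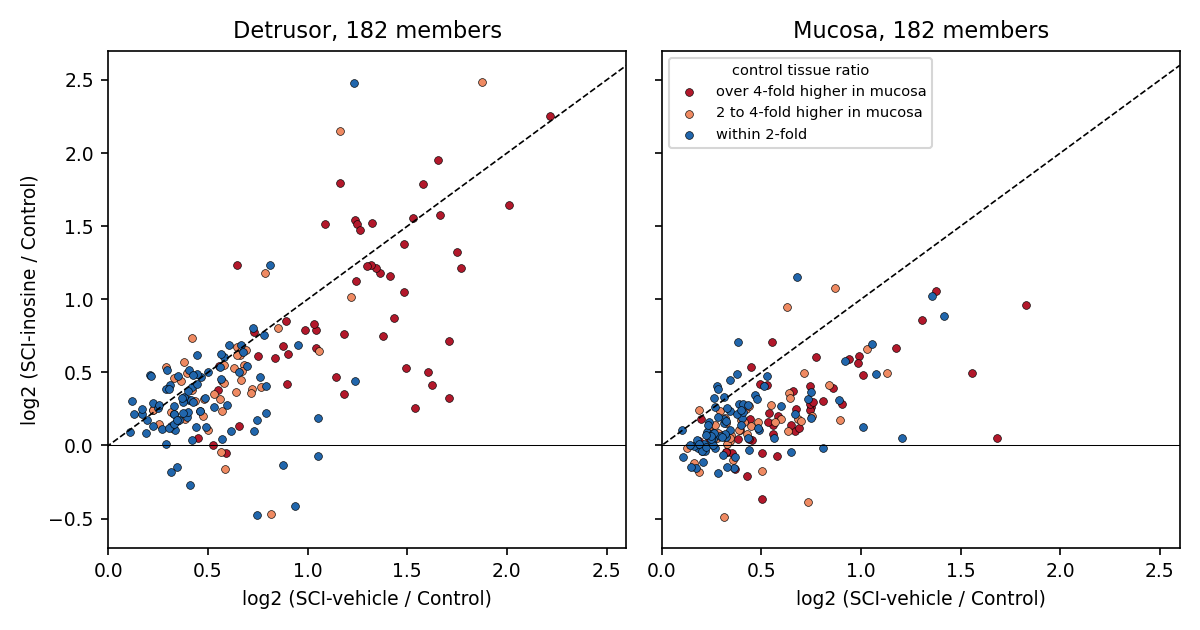
Each point is a member, with the log2 ratio of SCI-vehicle to Control on the x axis and of SCI-inosine to Control on the y axis (0.5 CPM added), in detrusor (left) and mucosa (right). Points below the dashed line of equal ratios have a lower mean in SCI-inosine than in SCI-vehicle, and in mucosa only 14 of 182 reach or pass the line, against 51 in detrusor.

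By library, detrusor SCI-inosine replicates 1, 2 and 3 exceeded the highest Control library for 107, 126 and 156 of the 182 members. The shares of all genes that did so were 25.9%, 40.7% and 38.8%. In mucosa the numbers were 136, 60 and 63 members, beside 27.9%, 25.9% and 20.3% of all genes. The mucosa libraries did not behave alike, and replicate 1 stood near SCI-vehicle, with a median member at 0.29 above Control on the log2 scale, against 0.05 in replicates 2 and 3. That library also had the highest position, 15.3%, of 217 detrusor-enriched genes, on a scale where Control mucosa libraries ran from -7.78% to 11.7%. The part of this in its values was not tested.

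In detrusor all SCI-inosine libraries were above all Control libraries for 75 members (41.2%), against 11.8% of all genes and 45.3% of the genes raised in detrusor alone. They were all below SCI-vehicle for 23 members (12.6%), against 3.39% of all genes and 11.7% of those raised in detrusor alone. Without detrusor SCI-inosine replicate 1, 117 members were above Control, against 24.0% of all genes. Members below SCI-vehicle numbered 31 without that library, 39 without replicate 2, which has few genes detected, and 48 without replicate 3, when 7.57%, 6.83% and 9.01% of all genes met the rule. They numbered 36 without SCI-vehicle replicate 2 and 36 under TMM scaling, when 7.74% and 4.45% of all genes met it. Under TMM scaling 60 members were above Control (33.0%), against 8.76% of all genes.

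In mucosa SCI-inosine was above Control for 25 members (13.7%), against 4.23% of all genes and 15.8% of the genes raised in mucosa alone. It was below SCI-vehicle for 56 (30.8%), against 8.12% of all genes and 31.3% of those raised in mucosa alone. The second count rested on single libraries and on the scaling. It was 133 without SCI-inosine replicate 1, when 20.2% of all genes met it, 93 without SCI-vehicle replicate 3, when 19.4% did, and 23 under TMM scaling, when 4.48% of all genes met it. The first count was 50 without Control replicate 1, when 9.56% of all genes met it. It was 38, 44 and 42 without SCI-inosine replicates 1, 2 and 3, when 10.1%, 8.16% and 8.67% of all genes did.

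Across both tissues, SCI-inosine was above Control in each for 12 members (6.59%, against 0.578% of all genes) and below SCI-vehicle in each for 12 others (6.59%, against 0.377%). Members were chosen for low Control and high SCI-vehicle values in both tissues, so nothing is read from these differences. In the first 12 the median log2 ratio to Control was 0.48 in detrusor and 0.31 in mucosa with inosine, and 0.47 and 0.40 with vehicle. In the second 12 it was 0.10 and -0.03 with inosine, and 0.40 and 0.30 with vehicle. A mixed pattern, above Control in detrusor and below SCI-vehicle in mucosa, held for 15 members (8.24%, against 0.805%), and the reverse for 4 (2.20%, against 0.130%). The SCI-inosine mean was below the SCI-vehicle mean in both tissues for 122 members (67.0%, against 30.3% of all genes) and above it in both for 5 (2.75%, against 23.1%).

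Tests of SCI-inosine against the other groups share libraries with the rule, so their counts describe the members and do not support a direction. In detrusor against Control, edgeR's quasi-likelihood test called 1 member up at an adjusted p under 0.05, against 0.191% of all genes, and 0 down. At an unadjusted p under 0.05 it called 46 up (25.3%), against 7.78% of all genes and 32.5% of the genes raised in detrusor alone, and 0 down. DESeq2 called 12 members up (adjusted p under 0.05), against 1.36% of all genes.

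The 1 member called was ENSRNOG00000046202. Its detrusor values were 3.17, 1.62 and 4.39 CPM in Control, 7.86, 6.80 and 7.76 in SCI-vehicle and 8.96, 21.6 and 15.3 in SCI-inosine. All SCI-inosine libraries lay above all others. The log2 difference from Control by edgeR was 2.22 (SE 0.39, adjusted p = 0.0497), and that from SCI-vehicle was 0.96 (SE 0.36, adjusted p = 0.952). In mucosa it stood at 12.0, 8.70 and 9.61 CPM in Control, 21.6, 15.7 and 13.5 in SCI-vehicle and 11.2, 14.1 and 18.0 in SCI-inosine, where the injured groups overlapped. No member was called in detrusor without any one of the 3 Control libraries, of SCI-vehicle replicates 2 and 3 or of SCI-inosine replicates 2 and 3. It was 1 of 3 members for which SCI-inosine exceeded SCI-vehicle in every detrusor library, against 5.70% of all genes.

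In mucosa against Control, edgeR called 0 members up or down, and 0% of all genes up. At an unadjusted p under 0.05, 16 members were up (8.79%), against 2.36% of all genes and 9.46% of the genes raised in mucosa alone, and DESeq2 called 0 members and 0.0826% of all genes up. The member with the smallest p had a mucosa log2 difference of 0.55 (SE 0.14, adjusted p = 0.829 by edgeR). Its mucosa values were 27.0, 34.1 and 30.8 CPM in Control, 36.4, 43.4 and 46.2 in SCI-vehicle and 48.1, 44.5 and 41.3 in SCI-inosine. Its detrusor values were 1.68, 3.08 and 2.93 CPM, 9.24, 5.22 and 6.08 CPM, and 7.49, 6.75 and 9.81 CPM in the same order of groups. In both tissues every injured library was above every Control library, and the injured groups overlapped.

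Against SCI-vehicle in detrusor, edgeR and DESeq2 called 0 members, and they called 0% and 0.0445% of all genes down. At an unadjusted p under 0.05 by edgeR 12 members were down (6.59%), against 1.71% of all genes and 6.45% of the genes raised in detrusor alone, and 1 was up. The member with the smallest p had detrusor values of 15.8, 15.1 and 17.1 CPM in Control, 22.4, 23.6 and 28.4 in SCI-vehicle and 15.7, 15.2 and 20.6 in SCI-inosine. Its log2 difference from SCI-vehicle was -0.60 (SE 0.20, adjusted p = 0.952 by edgeR), with SCI-inosine below SCI-vehicle in every library and overlapping Control.

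Against SCI-vehicle in mucosa, edgeR and DESeq2 called 0 members, and they called 0.00635% and 0.0127% of all genes down. At an unadjusted p under 0.05 by edgeR 18 members were down (9.89%), against 1.91% of all genes and 9.05% of the genes raised in mucosa alone, and 0 were up. The member with the smallest p had mucosa values of 44.8, 65.9 and 51.2 CPM in Control, 77.1, 81.2 and 95.8 in SCI-vehicle and 51.2, 56.5 and 49.3 in SCI-inosine. In detrusor it stood at 28.1, 44.5 and 71.0 CPM, 82.7, 98.7 and 159 CPM, and 43.0, 71.5 and 81.1 CPM in the same order. SCI-inosine was below SCI-vehicle and overlapped Control in both tissues. The log2 differences from SCI-vehicle were -0.62 in mucosa (SE 0.15, adjusted p = 0.881 by edgeR) and -0.89 in detrusor (SE 0.33, adjusted p = 0.952 by edgeR).

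The difference between the tissues in the response to inosine was fitted in one edgeR model of all 18 libraries. The smallest adjusted p among the members was 0.275 for SCI-inosine against Control and 1 for SCI-inosine against SCI-vehicle, so no member passed the threshold of 0.05 in either. Of all genes 0% passed it in either comparison, so the result is not particular to the members.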

How the data were processed

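The authors deposited read counts per gene for 18 libraries, whole numbers without normalization. According to the methods, ribosomal RNA was depleted, stranded libraries were read from both ends, and the counts from 2 flow cells were summed. The submitters' processing notes name Trim Galore 0.6.10, STAR 2.7.10a, featureCounts 2.0.3 and Rnor_6.0. Whether counting used the strand is not given in the sources used here. Reference tables matched 0 identifiers, so the gene lists, tissue markers, promoter motifs and sequences that had been planned were not analysed here.

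Members were found on CPM from column totals. The 15740 genes over 1 CPM in 3 or more libraries were scaled by TMM and tested with the two-sided quasi-likelihood F test of edgeR 4.0.16 in R 4.3.3, fitting the 9 libraries of a tissue together, or all 18 for contrasts between tissues. Adjusted p-values are Benjamini-Hochberg values over all genes tested. The biological coefficient of variation was 26.5% in detrusor and 20.0% in mucosa. DESeq2 1.42.0, its size factors, other filters, a replicate block and leaving out each library were alternatives. The fits were tested on simulated data. The members and the lists were chosen with earlier results of these data known. Members described singly were those ranking first by separation, abundance, mean log2 ratio or p-value, and genes without a name were printed by identifier for at most 2.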

Additional observations from a re-analysis of the deposited data

How the results depend on the processing

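The number of genes raised in both tissues, 182, was 122 with TMM scaling, 136 with DESeq2 size factors, 185 without the CPM filter, 149 above a mean of 5 CPM, 131 with Control tissues within 4-fold, 216 with no such limit and 55 with a ratio of means over 1.5 in both tissues, nothing added. Leaving out 1 library gave 199 to 423 genes, since fewer libraries make the rule easier to meet, and the highest counts came without mucosa SCI-vehicle replicate 3 (423) and mucosa Control replicate 1 (381).

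In detrusor SCI-inosine against Control, the 1 member called became 12 with DESeq2, 0 with DESeq2 size factors in edgeR, 0 with filterByExpr, 4 with every gene that had a count, 7 with all 18 libraries in one model, 46 at an unadjusted p under 0.05 and 0 to 1 when each library was left out. The cause was not tested. At an unadjusted p under 0.05 there were 13 members in detrusor and 18 in mucosa against SCI-vehicle, and 16 in mucosa against Control. The other alternatives called 0 members in these 3 comparisons. In SCI-inosine mucosa against SCI-inosine detrusor all alternatives gave 92 to 120 members.

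Deviations from group means were correlated between libraries. Within a tissue, same-numbered libraries of different groups exceeded 0.1 in 2 of 9 pairs in detrusor and 5 of 9 in mucosa. Pairs with different numbers did so in 3 of 18 and 7 of 18. These groups are different rats, so the pairs within a tissue do not bear on shared animals. Between detrusor and mucosa of a group, same-numbered libraries correlated at 0.006 to 0.233, over 0.1 in 5 of 9 pairs, and libraries with different numbers at -0.241 to 0.115, over 0.1 in 1 of 18. The labels name no shared animal, and these correlations do not settle whether same-numbered detrusor and mucosa libraries came from one rat. The main fits did not pair libraries, so the tests between tissues treated all 18 as independent. With the replicate number as a block, 0 members were called in detrusor SCI-inosine against Control and 110 between the tissues. That block joins different rats of the Control, SCI-vehicle and SCI-inosine groups, so it cannot show how pairing by animal would change these counts.

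Among alternatives chosen after seeing the data, members with SCI-inosine below SCI-vehicle numbered 36 in detrusor and 23 in mucosa under TMM scaling, and 24 to 48 and 60 to 133 when each library was left out. Members above Control numbered 77 to 117 in detrusor and 30 to 50 in mucosa when each library was left out. Under TMM scaling those above Control numbered 60 in detrusor and 25 in mucosa. The median log2 ratio of SCI-inosine to Control was 0.38 to 0.48 in detrusor and 0.05 to 0.21 in mucosa when each library was left out, lowest in mucosa without SCI-inosine replicate 1. The sign of the SCI-vehicle ratios is set by the rule. Depth limits the 33 members under 5 CPM, whose detrusor values often rest on a few counts.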
